A study of Mus musculus with 9 samples.

Results

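Transcripts of T cells and natural killer (NK) cells were measured in mouse heart for 10 genes, read from the rows of the count matrix that carry the symbols Cd3d, Cd3e, Cd3g, Cd247, Lck, Thy1, Cd8a, Cd4, Nkg7 and Gzma. These are 10 of the 22851 genes in the matrix, and all 10 were found. The study compared hearts of C57BL/6 mice in 3 groups of 3 libraries each, to describe the transcriptome of diabetic cardiomyopathy and of its treatment with spermine. CK mice were normal controls that received the citrate buffer alone. DCM mice, the diabetic cardiomyopathy model, received a single injection of streptozotocin, which destroys insulin-producing beta cells, and were kept diabetic for 12 weeks. SPM mice received streptozotocin and were also injected with spermine, a polyamine, from before the streptozotocin until the end of the 12 weeks. All mice were young adult males at the start, of the same strain, and none of these groups received spermine without streptozotocin, so spermine can be compared only on a diabetic background.

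A T cell recognizes antigen through the T cell receptor (TCR), whose variable chains have no signalling tail of their own. Signal passes through the CD3 gamma, delta and epsilon chains and the zeta chain encoded by Cd247, whose tyrosine motifs are phosphorylated by the kinase Lck. The coreceptors CD4 and CD8 bind MHC class II and class I and bring Lck to the receptor. NK cells lack a rearranged receptor but use the zeta chain with some of their activating receptors, and share granule proteins such as granzyme A with cytotoxic T cells. The normal heart holds few lymphocytes among its muscle, vessel and stromal cells, so their transcripts are read in whole-heart RNA at low levels. In such bulk RNA, fewer cells of a type and less RNA per cell cannot be told apart.

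The total count on genes lay between 29901300 and 33990348 in CK, between 30556114 and 39718680 in DCM and between 31472566 and 33444305 in SPM. The tissue label is heart, whereas the extraction protocol attached to all libraries speaks of retinas. The 6 cardiomyocyte genes measured, led by Mb and Myl2, summed to 38800 to 52600 CPM (counts scaled to a common library total) per library, and the 5 retina genes measured, led by Sag and Gnat1, to 0.576 to 1.56. The study's methods state both 3 mice per group and pools of 6 hearts, so a library may stand for 1 animal or for several, and p-values measure the spread between these libraries. SPM replicate 2 stood apart. Of 2656 genes with no count in the other SPM libraries, 30 had a count in it, against 485 to 1162 genes for the other 8 libraries in their own groups. It lay between the other SPM libraries for 69.1% of 11602 genes with at least 50 counts, against 14.2% to 41.2% for the other libraries. A mix of 44.6% of SPM replicate 1 with SPM replicate 3 left a median squared deviation from it of 0.87 times that of counting noise. The best mixes for the other libraries left squared deviations of 2.65 to 8.34 times. It is therefore doubtful that SPM replicate 2 is an independent sample. Calls in comparisons with SPM are given with and without it, unless stated otherwise.

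The 10 genes lie on 6 chromosomes (GRCm38, GENCODE M21). Cd3g (chr9:44969572-44980431, minus strand), Cd3d (chr9:44981786-44987339, plus strand) and Cd3e (chr9:44998740-45009627, minus strand) are neighbours, and Thy1 lies on the same chromosome (chr9:44043384-44048579, plus strand). Cd8a (chr6:71373427-71379173, plus strand) and Cd4 (chr6:124864692-124888221, minus strand) share chromosome 6. Cd247 lies at chr1:165788681-165877277 (plus strand), Lck at chr4:129548344-129573641 (minus strand), Nkg7 at chr7:43437073-43438249 (plus strand) and Gzma at chr13:113093825-113100981 (minus strand). Exons of Cd247 overlap those of Gm16565 on the same strand and of Pou2f1 on the other strand. In CK, DCM and SPM, respectively, Gm16565 had 41 to 74, 24 to 38 and 9 to 20 counts, and Pou2f1 had 103 to 134, 138 to 172 and 125 to 161. How reads in the shared exons were assigned is not given in the sources used here, so the Cd247 values carry that uncertainty. Exons of Cd3e also overlap Gm48719 on the other strand, and those of Lck overlap the microRNA gene Mir8119.

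The promoters below, from RefSeq (GRCm38.p6), belong to the genes that were lower in both diabetic groups by the test used here and that have an entry in the promoter table. They are shown because these genes differed together between CK and the diabetic groups. Each line gives the 250 bases before a start site, 5′ to 3′ on the strand of the gene. Capitals mark AGGAAG, a core that ETS family factors bind, and TGTGGT, a core that RUNX factors bind, on either strand. Lck has a distal and a proximal start, known for use in mature T cells and in thymocytes respectively. Thy1, also lower in both diabetic groups, and Cd4 have no entry.
Cd247, chr1:165788431-165788680, plus strand: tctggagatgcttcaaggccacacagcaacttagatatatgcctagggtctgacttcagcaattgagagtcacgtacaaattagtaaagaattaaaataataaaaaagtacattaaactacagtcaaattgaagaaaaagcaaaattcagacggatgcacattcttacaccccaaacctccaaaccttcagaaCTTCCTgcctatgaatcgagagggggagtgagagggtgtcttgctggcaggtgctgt
Lck distal, chr4:129573642-129573891, minus strand: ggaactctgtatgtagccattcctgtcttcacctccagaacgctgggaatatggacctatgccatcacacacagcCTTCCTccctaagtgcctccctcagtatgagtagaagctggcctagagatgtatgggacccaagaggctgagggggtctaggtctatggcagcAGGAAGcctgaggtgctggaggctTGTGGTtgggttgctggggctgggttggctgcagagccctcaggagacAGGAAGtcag
Lck proximal, chr4:129558373-129558622, minus strand: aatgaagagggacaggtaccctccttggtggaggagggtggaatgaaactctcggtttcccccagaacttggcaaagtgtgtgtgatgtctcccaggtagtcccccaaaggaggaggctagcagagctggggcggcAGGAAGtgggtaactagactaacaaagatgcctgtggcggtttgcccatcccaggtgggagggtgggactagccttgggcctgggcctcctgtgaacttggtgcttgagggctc
Gzma, chr13:113100982-113101231, minus strand: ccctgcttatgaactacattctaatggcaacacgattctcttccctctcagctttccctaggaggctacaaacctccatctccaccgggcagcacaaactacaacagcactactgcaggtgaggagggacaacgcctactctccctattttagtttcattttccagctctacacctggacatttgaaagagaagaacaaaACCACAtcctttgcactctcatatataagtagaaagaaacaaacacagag

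Over windows that also take in the 50 bases after the start, 9 promoters of 8 of the genes were searched on both strands. AGGAAG was present in 6 of the 9, against 35.4% of all 32851 promoters of the same length, and TGTGGT in 3 of the 9, against 16.8%. AGATAA, bound by GATA factors, was present in 1 (11.2% of all), CTTTGA, bound by TCF/LEF factors, in 2 (16.0%), and the E-box CAGCTG in 2 (16.3%). The TATA box letters TATAAA were in none of the 9 (13.6% of all). No match overlapped a match of another motif. The printed Lck distal promoter holds 3 AGGAAG matches and 1 TGTGGT match, the proximal one 1 and 0, the Cd247 promoter 1 and 0, and the Gzma promoter 0 and 1. These are matches of letters and not measured binding sites.

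On the FPKM scale, counts scaled by gene length and library total, which can be compared between genes, Thy1 was the highest of the 10, with a mean level of 6.71 FPKM over the 9 libraries and a range of 4.38 to 10.7. It was above every other member in 9 of 9 libraries without overlap of the ranges. Thy1 encodes a small surface glycoprotein of T cells that fibroblasts and neurons also carry, so its level in whole heart is not a level of T cells alone. Cd247 followed at a mean of 1.27 FPKM (0.664 to 2.35), then Nkg7 at 0.993, Gzma at 0.823, Lck at 0.726 and Cd4 at 0.593. Cd3d, Cd3g and Cd8a were at 0.37, 0.339 and 0.295 FPKM. Cd3e was lowest at 0.0442 (0 to 0.0918). From Cd247 down, the ranges of all neighbours in this order overlapped, and Cd8a was above Cd3e in 9 of 9 libraries although their ranges touched.

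**Figure D1:**
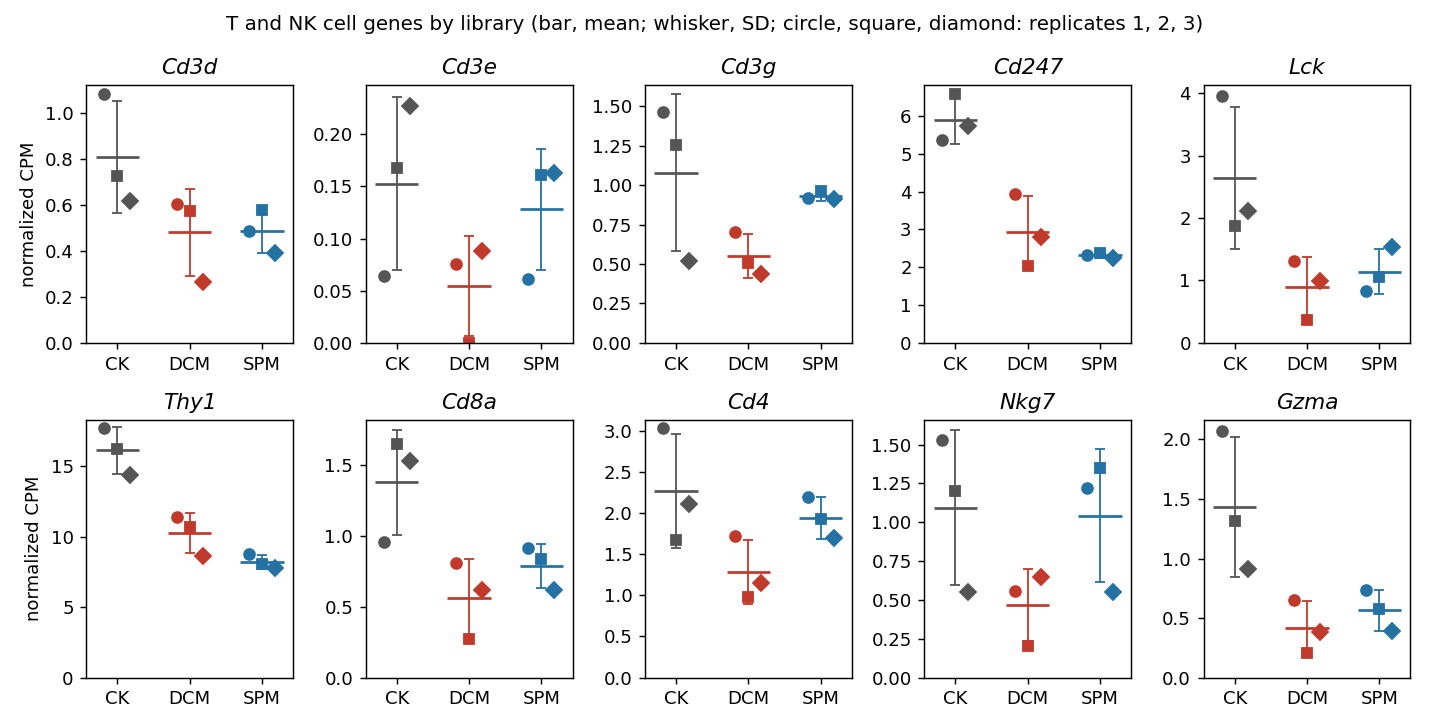
Normalized CPM (vertical axes, each starting at 0) of the 10 genes in every library, by group (horizontal axes, 3 libraries each), with the group mean as a bar and the SD as a whisker. All DCM and all SPM libraries lie below all CK libraries for Cd247, Lck, Thy1 and Gzma, and by narrower gaps for Cd3d and Cd8a. Nkg7 in SPM spans 0.553 to 1.35.

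The chains of the CD3 complex were near the limit of what this depth can read. Levels that follow are normalized CPM, that is CPM on library totals scaled by the trimmed mean of M values (TMM), given for replicates 1 to 3 of each group. Cd3e, the epsilon chain, had 2, 6 and 7 counts in CK, 3, 0 and 3 in DCM and 2, 5 and 5 in SPM. It did not pass the filter on low counts and was not tested. Summed over the libraries, its counts were 15, 6 and 12, a DCM to CK ratio of 0.357 (95% interval 0.113 to 0.973) and an SPM to CK ratio of 0.776 (0.331 to 1.77), intervals that cover counting error only.

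Cd3d, the delta chain, was at 1.08, 0.726 and 0.617 CPM in CK, 0.606, 0.576 and 0.264 in DCM and 0.489, 0.578 and 0.390 in SPM. The CK libraries were all above both diabetic groups, but their lowest was above the highest DCM library by less than the spread within either group. Cd3g, the gamma chain, was at 1.47, 1.26 and 0.520 CPM in CK, 0.706, 0.509 and 0.440 in DCM and 0.917, 0.964 and 0.911 in SPM. CK replicate 3 was below DCM replicate 1, and the SPM libraries lay close together above all DCM libraries. Its counts in CK, DCM and SPM were 16 to 46, 15 to 28 and 28 to 30.

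Cd247 was at 5.35, 6.59 and 5.75 CPM in CK, 3.94, 2.03 and 2.79 in DCM and 2.32, 2.38 and 2.25 in SPM. The group means were 5.90 ± 0.631 (SD, n = 3), 2.92 ± 0.958 and 2.31 ± 0.0664 CPM. CK stood above both diabetic groups without overlap, and the SPM libraries lay within the range of the DCM libraries. Raw counts in the 3 groups were 168 to 236, 60 to 156 and 69 to 76, so Cd247 was read far more deeply than the CD3 chains.

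Lck, the kinase that phosphorylates the CD3 and zeta chains, was at 3.95, 1.87 and 2.11 CPM in CK, 1.31, 0.373 and 0.998 in DCM and 0.825, 1.06 and 1.53 in SPM. CK replicate 1 stood well above the other CK libraries, and DCM replicate 2, with 11 counts, was the lowest of all. Thy1 was at 17.7, 16.3 and 14.4 CPM in CK, 11.4, 10.7 and 8.66 in DCM and 8.80, 8.06 and 7.78 in SPM. Its group means were 16.1 ± 1.67, 10.2 ± 1.42 and 8.21 ± 0.528 CPM (SD, n = 3), with 239 to 583 counts per library. Neither gene showed overlap between CK and a diabetic group.

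Of the coreceptors, Cd8a was at 0.956, 1.65 and 1.53 CPM in CK, 0.807, 0.271 and 0.616 in DCM and 0.917, 0.835 and 0.618 in SPM. The lowest CK library was above the highest of either diabetic group, in the case of SPM by a narrow gap. Cd4, which macrophages can also express, was at 3.03, 1.68 and 2.11 CPM in CK, 1.72, 0.983 and 1.14 in DCM and 2.20, 1.93 and 1.69 in SPM. The ranges of the 3 groups overlapped for Cd4. The ratio of Cd4 to Cd8a on the FPKM scale had ranges of 1.02 to 3.19, 1.87 to 3.65 and 2.32 to 2.75 in CK, DCM and SPM, and the groups overlapped.

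Nkg7, a granule protein of NK and cytotoxic T cells, was at 1.53, 1.2 and 0.552 CPM in CK, 0.555, 0.203 and 0.646 in DCM and 1.22, 1.35 and 0.553 in SPM. CK replicate 3 and SPM replicate 3 were as low as DCM replicate 1. Gzma, the serine protease granzyme A, was at 2.07, 1.31 and 0.909 CPM in CK, 0.656, 0.203 and 0.381 in DCM and 0.733, 0.578 and 0.390 in SPM. All diabetic libraries, with or without spermine, were below all CK libraries for Gzma. The ratio of Gzma to Nkg7 on the FPKM scale ran from 0.967 to 1.46, from 0.523 to 1.05 and from 0.379 to 0.624 in CK, DCM and SPM. On this ratio the SPM libraries were below the CK libraries, and the DCM libraries overlapped both.

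The libraries were not alike across genes. CK replicate 1 was the highest library for 7 of the 10 genes, and DCM replicate 2 the lowest for 7. The summed level of the 10 genes was 37.2, 32.7 and 28.7 CPM in CK, 21.8, 15.8 and 16.0 in DCM and 18.5, 17.9 and 16.3 in SPM, of which Thy1 was the largest share. Without Thy1 the sum was 19.5, 16.4 and 14.3 CPM in CK, 10.4, 5.15 and 7.36 in DCM and 9.69, 9.83 and 8.49 in SPM. On both sums the CK libraries were above all others, and DCM replicate 2 was the lowest.

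In DCM compared with CK, Cd247, Lck, Thy1 and Gzma fell. A gene was called when its adjusted p was below 0.05 and its fold change at least 1.5 in edgeR's quasi-likelihood test over all genes. Gzma was 3.37-fold lower (log2 difference −1.75 ± 0.49, SE, adjusted p = 0.0413) and Lck 2.90-fold lower (−1.54 ± 0.43, adjusted p = 0.0415). Cd247 was 2.01-fold lower (−1.01 ± 0.23, adjusted p = 0.0162) and Thy1 1.58-fold lower (−0.66 ± 0.13, adjusted p = 0.00744). The calls made 4 of the 9 genes tested, where 2.31% of all 14402 genes tested were called lower and 2.03% higher. All 9 had a lower estimate in DCM, against 50.4% of all genes, and their median log2 difference was −1.01, against -0.0025 over all genes. For 6 of the 9, every DCM library was below every CK library, as for 14.6% of all genes.

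The other 5 genes tested did not pass. Cd8a had a log2 difference of −1.26 (95% interval −2.24 to −0.28, adjusted p = 0.101) and Cd3d one of −0.74 (−1.78 to 0.30, adjusted p = 0.378), both without overlap of the groups. Nkg7 at −1.2 (−2.34 to −0.07, adjusted p = 0.176), Cd3g at −0.96 (−1.98 to 0.06, adjusted p = 0.231) and Cd4 at −0.81 (−1.54 to −0.09, adjusted p = 0.155) had overlapping groups. These intervals leave room for differences as large as those of the called genes. The calls changed with single libraries. The 4 calls became 1 without CK replicate 1 (Cd247 alone), 1 without CK replicate 2 and 1 without DCM replicate 2 (Thy1 alone in each), and 0 without DCM replicate 3, with 9 of 9 estimates lower each time. Thy1 missed only the fold limit without CK replicate 1 (−0.584, adjusted p = 0.016) and without DCM replicate 3 (−0.544, adjusted p = 0.0341).

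In SPM compared with DCM, none of the 9 genes tested passed, in edgeR or in DESeq2, and 2 had an unadjusted p below 0.05. These were Nkg7, with a log2 difference of 1.14 (95% interval 0.07 to 2.21, adjusted p = 0.124), and Thy1, with one of −0.31 (−0.60 to −0.03, adjusted p = 0.114). Over all 14493 genes tested, 2.70% were called higher and 0.890% lower. These shares became 0.283% and 0.0944% without SPM replicate 2, 0.327% and 0.16% without DCM replicate 2, and 0.607% and 0.317% with a correction for GC content. The estimate was higher in SPM for 7 of the 9 genes and lower for Cd247 and Thy1 (lower for 49.3% of all genes), with a median of 0.43. Cd3g was at 0.75 (−0.02 to 1.52, adjusted p = 0.154) and was the 1 gene with all SPM libraries above all DCM libraries, as for 19.0% of all genes. Cd4 was at 0.59 (−0.04 to 1.23), Cd8a at 0.47 (−0.49 to 1.42), Gzma at 0.43 (−0.66 to 1.53), Lck at 0.33 (−0.64 to 1.30), Cd3d at 0.02 (−0.98 to 1.01) and Cd247 at −0.34 (−0.89 to 0.22). The interval of Thy1 excludes a 1.5-fold rise, and that of Cd247 does too, whereas for the others a rise of that size lies inside the interval.

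Without SPM replicate 2, none passed either. Nkg7 was then at 0.92 and Cd3g at 0.73, and Cd3d changed its sign to −0.12. Leaving out DCM replicate 2 turned Lck to −0.019. Over all genes, fold changes between SPM and DCM were also lower where GC content was higher (Spearman's rho −0.502 over 14484 genes), and the 10 genes span 38.5% GC for Cd3g to 55.8% for Thy1. With a correction for that trend the median of the 9 genes was 0.37. Cd3g, the lowest in GC, was then at 0.37 instead of 0.75 (adjusted p = 0.556), Gzma at 0.24, Thy1 at −0.18 and Cd247 at −0.52, and the part of GC content in these values was not otherwise tested.

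In SPM compared with CK, Cd247, Lck, Thy1 and Gzma fell, so that each was lower in both diabetic groups, which were set against the same CK libraries. Cd247 was 2.55-fold lower (log2 difference −1.35 ± 0.16, SE, adjusted p = 0.00134) and Thy1 1.97-fold lower (−0.97 ± 0.11, adjusted p = 0.00109). Gzma was 2.505-fold lower (−1.32 ± 0.41, adjusted p = 0.0421) and Lck 2.32-fold lower (−1.21 ± 0.37, adjusted p = 0.0388). The calls made 4 of the 9 genes tested, where 4.12% of 14574 genes were called lower and 5.08% higher (2.28% and 2.9% without SPM replicate 2). All 9 had a lower estimate, against 49.8% of all genes, and 6 of the 9 had all SPM libraries below all CK libraries, as for 23.8% of all genes. Cd8a was at −0.80 (95% interval −1.56 to −0.03, adjusted p = 0.108) and Cd3d at −0.73 (−1.59 to 0.13, adjusted p = 0.18). Cd3g at −0.22 (−1.13 to 0.69), Cd4 at −0.22 (−0.84 to 0.40) and Nkg7 at −0.07 (−1.12 to 0.98) had smaller estimates with overlapping groups. GC content and fold change also went in opposite directions here (rho −0.366), and with the correction Cd3g was at −0.60 (adjusted p = 0.348).

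Cd247 and Thy1 kept their calls under every alternative tried in this comparison, but Lck and Gzma did not. Without SPM replicate 2, Cd247 was at −1.36 (adjusted p = 0.0103) and Thy1 at −0.96 (adjusted p = 0.00825), whereas Lck at −1.16 (adjusted p = 0.134) and Gzma at −1.33 (adjusted p = 0.144) no longer passed, which left 2 calls. The same 2 remained without CK replicate 1, without SPM replicate 1 and with all 9 libraries in one fit. Lck also lost its call with the replicate number as a block (−1.17, adjusted p = 0.0632) and with the correction for GC content (−1.09, adjusted p = 0.0546).

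**Figure D2:**
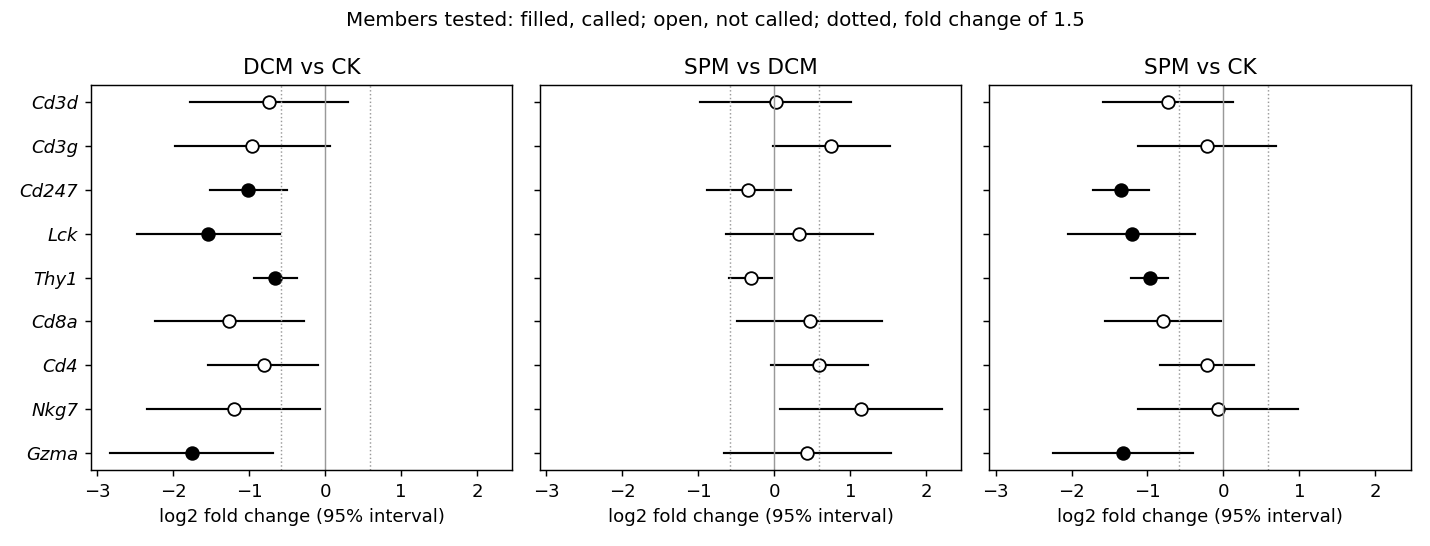
Log2 fold change (horizontal axes) with its 95% interval for the 9 genes tested in the 3 comparisons of 3 with 3 libraries, filled where called, with dotted lines at a fold change of 1.5. The filled points Cd247, Lck, Thy1 and Gzma recur in both comparisons with CK, and no point is filled between SPM and DCM.

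Beyond the 10 genes, 64 related genes of T and NK cells were in the matrix, in 6 lists. In DCM compared with CK, 43 of them were tested, 38 had a lower estimate, 3 fell and none rose, with a median log2 difference of −0.84. Among them was Klra9, a Ly49 receptor of NK cells (−2.06 ± 0.43, SE, adjusted p = 0.00962). Klra9 belongs to a family of near-identical genes that can share reads, so its count is uncertain. The share called, 3 of 43, stands beside 2.31% of all genes called lower. The medians of all 6 lists were below 0, from −1.37 for NK cell receptors (5 of 5 lower) to −0.59 for receptors of naive and memory T cells (6 of 7 lower). None of the 8 TCR chains and partners tested passed. Trac, the constant region of the TCR alpha chain, had 50 to 63, 6 to 31 and 15 to 41 counts in CK, DCM and SPM, with a log2 difference of −1.41 (adjusted p = 0.0783) in DCM. Trbc2, a beta chain constant region with a near-identical neighbour, was at −0.62 (adjusted p = 0.457).

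In SPM compared with DCM, 30 of 42 related genes tested had a higher estimate, 4 rose and none fell, with a median of 0.39. Among them were Gzmb, which encodes granzyme B (2.52 ± 0.62, adjusted p = 0.0260), Cd244a, the receptor 2B4 of NK and CD8 T cells (1.51 ± 0.34, adjusted p = 0.0206), and Vav1, an exchange factor of most blood cells (0.61 ± 0.18, adjusted p = 0.0412). Gzmb was at 0.505, 0.0339 and 0.0880 CPM in DCM, the lowest of these being a single count, and at 1.22, 1.41 and 1.24 in SPM. It was at 0.860, 1.03 and 0.195 CPM in CK, so the SPM libraries were above all others while CK and DCM overlapped. The 4 calls became 0 without SPM replicate 2, 0 without DCM replicate 2, 1 without DCM replicate 1 or 3, and 0 with the correction for GC content. The share called, 4 of 42, stands beside 2.70% of all genes called higher, a share that also became smaller in those fits (0.283% without SPM replicate 2).

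In SPM compared with CK, 33 of 45 related genes tested had a lower estimate, 4 fell and none rose, with a median of −0.40. They were Bcl11b, a transcription factor of T cell commitment (−1.0 ± 0.24, adjusted p = 0.0175), Ccr7, the homing receptor of naive T cells and of dendritic cells (−1.35 ± 0.37, adjusted p = 0.0265), Klra9 (−1.67 ± 0.34, adjusted p = 0.00898) and Itga2, an integrin of NK cells and platelets (−1.31 ± 0.37, adjusted p = 0.0307). The share called, 4 of 45, stands beside 4.12% of all genes, and the 4 calls became 0 without SPM replicate 2. By list, the median was lowest for TCR chains and partners (−0.89, 5 of 8 lower, 0 called) and was 0.17 for NK cell receptors, of which 3 of 5 had a higher estimate while Klra9 and Itga2 fell.

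**Figure D3:**
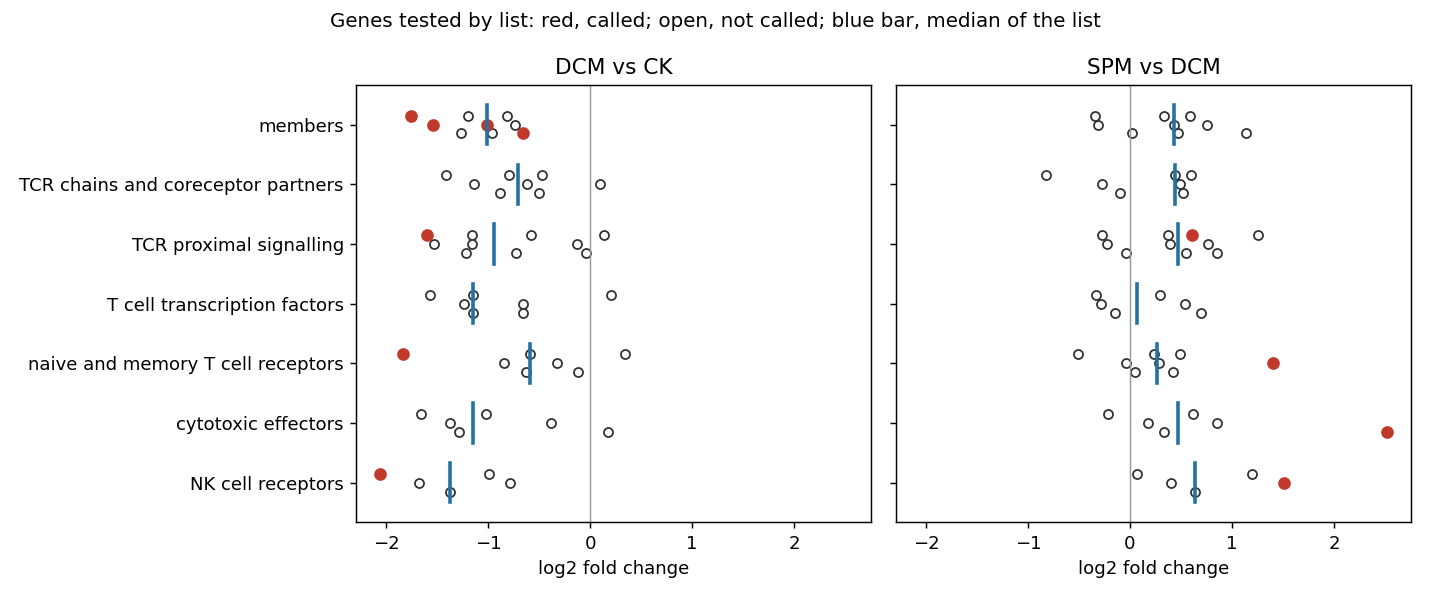
Log2 fold change (horizontal axes) of each gene tested in the set of 10 genes (members) and in the 6 related lists, for DCM compared with CK and SPM compared with DCM, 3 with 3 libraries each. Red points were called, open points were not, and the bar is the median of the list. In DCM all list medians lie below 0, and in SPM all lie above 0, from 0.07 to 0.64.

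Genes of other leukocytes moved alongside. In DCM, 9 of 9 pan-leukocyte genes had a lower estimate than in CK and 5 fell, and their summed level, led by Laptm5 and Coro1a, was 110 to 170 CPM in CK and 61.5 to 102 in DCM. The 5 calls ranged from 1, without CK replicate 1 or DCM replicate 2, to 7 with 1 library left out. Of all genes, 2.31% were called lower and 2.03% higher in DCM compared with CK. The B cell genes, led by Ighm and Blk, summed to 35.3 to 79.9, 22.3 to 39.3 and 29.9 to 34.5 CPM in CK, DCM and SPM, with 8 of 8 lower in DCM, of which 1 fell (0 without DCM replicate 2 or 3). The macrophage genes, led by Lyz2 and C1qa, summed to 804 to 1060, 670 to 791 and 792 to 1340 CPM. Of the 10, 9 had a lower estimate in DCM and 2 were called lower (2 to 5 with 1 library left out). Cd163 was higher in DCM (0.44, adjusted p = 0.00226, under the 1.5-fold limit), with all DCM libraries above all CK libraries. The neutrophil genes, led by S100a9 and S100a8, went the other way, at 8.12 to 15.3, 16.6 to 33.5 and 35.0 to 66.6 CPM, with 6 of 6 higher in DCM than in CK, of which 2 rose (1 to 4 with 1 library left out).

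In SPM the pan-leukocyte genes were at 114 to 148 CPM, with 8 of 9 higher than in DCM and 6 called, and 6 of 10 macrophage genes rose. Without SPM replicate 2 none of either list was called, with 9 of 9 and 10 of 10 estimates higher, and with the correction for GC content 0 and 3 were called. Calls over all genes became fewer too. They were 2.70% higher and 0.890% lower at first, 0.283% and 0.0944% without SPM replicate 2, and 0.607% and 0.317% with the GC correction. None of the T and NK cell genes tested was called in SPM compared with DCM under any alternative tried, where the 1 CPM filter left 4 to test. SEs of these genes ran from 0.13 to 0.49 in the main test, against 0.12 to 0.31 for the pan-leukocyte genes. The missing calls are therefore no sign that the T and NK cell genes stayed level. The erythroid genes, led by Hbb-bs and Hba-a1, summed to 1540 to 3620, 1330 to 3300 and 753 to 1290 CPM in CK, DCM and SPM, and 4 of 4 fell in SPM compared with DCM (0 without SPM replicate 2 and 0 with the correction for GC content). Fibroblast genes, led by Gsn and Dcn, summed to 5370 to 5590, 4770 to 5310 and 4410 to 4870 CPM in the same order, which bears on Thy1, since fibroblasts carry it. Gsn, at a log2 difference of 0.07, Pdgfra, at 0.05, and Dcn, at −0.04, were not called in DCM compared with CK. Lum was lower there (−0.49, adjusted p = 0.00142, under the 1.5-fold limit), with all DCM libraries below all CK libraries. The collagen genes Col1a1 (−1.06, adjusted p = 3.36e-06), Col1a2 (−0.81, adjusted p = 0.000101) and Col3a1 (−1.54, adjusted p = 8.85e-07) fell. The collagen genes also fell in SPM compared with CK, given here only with SPM replicate 2 included. Dcn (0.31, adjusted p = 0.0203) and Pdgfra (0.24, adjusted p = 0.0135) were higher there, with all SPM libraries above all CK libraries but under the 1.5-fold limit. The other 5 of the 7 fibroblast genes had a lower estimate there. The 5 neuron genes, led by Stmn2 and Prph, which also bear on Thy1, summed to 8.86 to 12.3, 7.01 to 8.70 and 8.23 to 9.35 CPM. The part of these cell types in the results was not tested.

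The remaining lists were dendritic cell genes (Zbtb46 and Clec9a highest), at 40.4 to 46.0, 34.2 to 40.1 and 28.6 to 33.8 CPM in CK, DCM and SPM, and endothelial genes (Pecam1 and Cdh5), at 1800 to 2060, 1680 to 1850 and 1550 to 1710. To look for tissue of thymus or lymph node in the dissection, immature thymocyte genes (Cd1d1 and Arpp21 highest, 3 of 6 in the matrix) were at 5.36 to 6.31, 5.28 to 7.25 and 6.29 to 6.94 CPM. Rag1, Rag2 and Ptcra were not among those found, and Dntt did not pass the filter on low counts. Cd1d1 was at a mean of 2.69 FPKM against 0.174 for Arpp21, so the list tells little about thymus tissue. Lymph node stroma genes (Lyve1 and Prox1 highest, 4 of 6 in the matrix) were at 88.9 to 108, 114 to 125 and 159 to 198 CPM, and Lyve1 and Prox1 are also genes of cardiac lymphatic vessels. Of the 3 tested, Lyve1 and Cxcl13, a chemokine of B cell follicles, rose in all 3 comparisons. Their calls in the comparisons with SPM are given here only with SPM replicate 2 included. Cxcl13 had 8 to 39 counts in CK, 76 to 103 in DCM and 1967, 976 and 180 in SPM, with log2 differences of 1.95 ± 0.41 (SE, adjusted p = 0.00965) in DCM compared with CK and 3.61 ± 0.65 (adjusted p = 0.0120) in SPM compared with DCM. The collagen genes, Pdgfra, Lum, Cd163 and Cxcl13 were named after their values were seen, and the part of lymph node tissue in the T and NK cell values was not tested. No listed gene found in the matrix was at 0 in all libraries. Listed genes that were not found have no value here. Of the cardiomyocyte genes too, only 6 of 8 were found, so a missing gene cannot be read as not expressed.

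**Figure D4:**
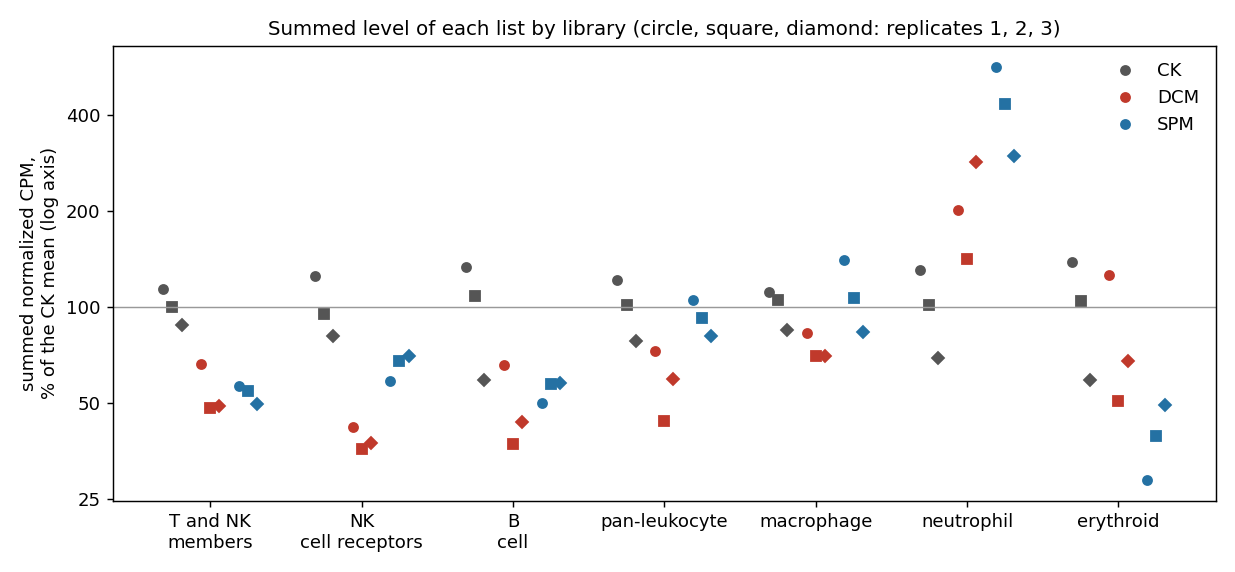
Summed normalized CPM of the T and NK cell genes and of 6 marker lists in each library, as a percentage of the mean of the 3 CK libraries (vertical log axis). The T and NK cell genes lie at 48.1% to 66.2% in DCM and at 49.4% to 56.2% in SPM, whereas the pan-leukocyte genes in SPM lie around the CK mean.

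The T and NK cell genes were also set against leukocyte genes of the same library, as ratios on the FPKM scale that are descriptions with no test. Cd247 over Ptprc, which encodes the pan-leukocyte antigen CD45, was 0.815, 0.994 and 1.39 in CK, 0.923, 1.40 and 0.858 in DCM and 0.326, 0.366 and 0.358 in SPM. CK and DCM overlapped on this ratio, and all SPM libraries were below both. Ptprc itself was at 2.33, 2.36 and 1.44 FPKM in CK, 1.44, 0.473 and 1.07 in DCM and 2.36, 2.15 and 2.07 in SPM. Lck over Ptprc was 0.814, 0.382 and 0.689 in CK, 0.417, 0.348 and 0.415 in DCM and 0.157, 0.221 and 0.330 in SPM, again with all SPM libraries lowest. Trac over Ptprc was 0.967, 0.706 and 1.24 in CK, 0.580, 0.444 and 0.885 in DCM and 0.556, 0.484 and 0.246 in SPM, where SPM overlapped DCM. The 9 genes without Thy1, summed per 100 FPKM of the pan-leukocyte genes, were at 10.99, 10.74 and 10.89 in CK, 9.34, 7.83 and 8.36 in DCM and 6.51, 7.74 and 6.84 in SPM. On this measure the 3 groups did not overlap, with SPM replicate 2 the highest SPM library. Ptprc has 39.4% GC, against 44.4% for Cd247, 47.8% for Trac and 54.3% for Lck. Fold changes of SPM were lower where GC content was higher (Spearman's rho −0.502 against DCM and −0.366 against CK). The ratios carry no correction for that trend, and its part in them was not tested.

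**Figure D5:**
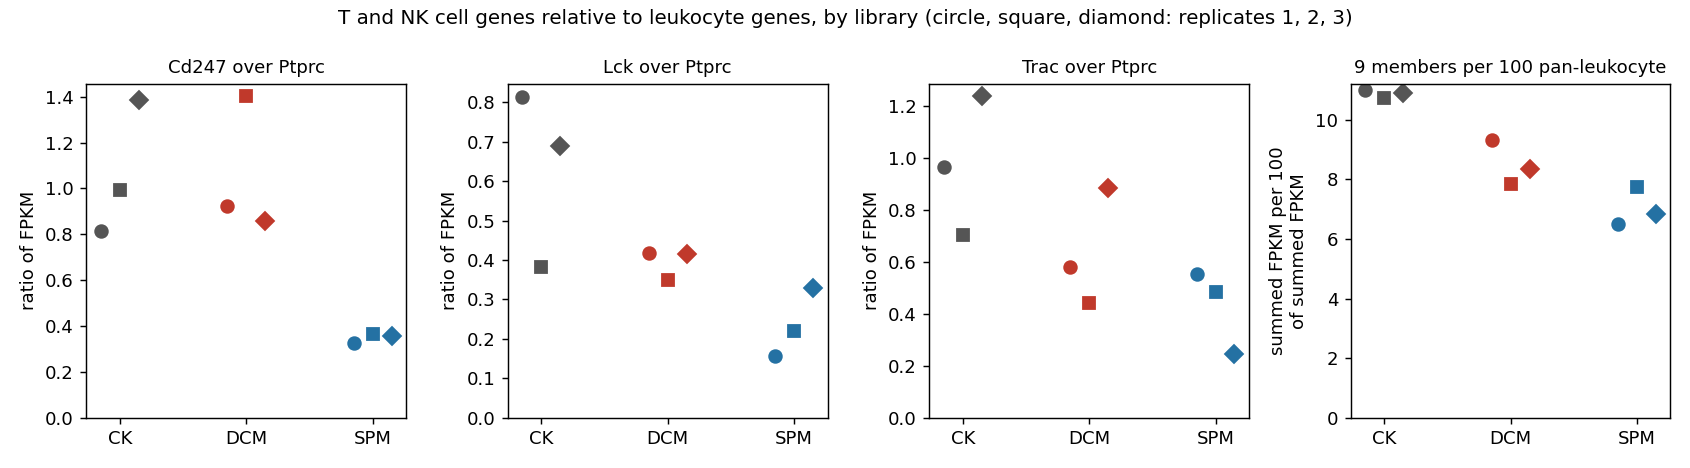
Ratios of FPKM in each library (vertical axes from 0) by group: Cd247, Lck and Trac over Ptprc, and the 9 genes without Thy1 per 100 FPKM of the pan-leukocyte genes. The SPM libraries are lowest in every panel but that of Trac, where they overlap DCM, and lie between 0.326 and 0.366 in the first. The ratios carry no correction for GC content.

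The genes whose pattern was most like that of Cd3d, Cd3g, Cd247 and Lck (Cd3e was left out by the filter) were found over 14900 other genes by Pearson's r with the mean of their standardized log2 CPM across the 9 libraries. Ighm, the constant region of immunoglobulin M of B cells, was most alike (r = 0.987), followed by Med11, a Mediator subunit (0.982), Kif22, a kinesin (0.982), Lef1, a transcription factor of T cells (0.982), and Slc11a1, a metal transporter of phagocytes (0.976). An r above 0.9 was found for 107 genes. The points are the same 9 libraries in 3 groups, so these values describe likeness over few points. Ighm had log2 differences of −1.07 in DCM compared with CK, 0.31 in SPM compared with DCM and −0.76 in SPM compared with CK.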

How the data were processed

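RNA of 9 libraries was sequenced on Illumina instruments after poly(A) enrichment and filtering with fastp, per the study's methods, and the submitters' processing notes name Bowtie 0.12.2 and the builds mm8 and mm9 without a role. Sources used here name neither the counting tool nor the strand setting. The authors deposited raw gene counts and, per library, FPKM, which equalled the count over 1 length per gene and the library total (largest relative deviation 8.6e-13). Symbols came from GENCODE M21, which lacks 31 of the 22851 identifiers.

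Groups were compared in pairs with their 6 libraries by edgeR 4.0.16 (R 4.3.3; filterByExpr, TMM, quasi-likelihood test, Benjamini-Hochberg over all genes tested), with calls below an adjusted p of 0.05 from a 1.5-fold change up, and the steps were tested on simulated data. Alternatives were DESeq2 1.42.0, RLE scaling, no filter, 1 CPM in 3 libraries, all 9 libraries, no fold limit, a replicate block, a GC correction (lowess span 0.3), both together, each library left out (counted for the marker lists after seeing the data), and limma 3.58.1 on log2 FPKM with 0.1 added. The genes and lists were chosen with earlier results of these data known. Named were all 10 genes, called genes of the related lists (where none, the 2 with the largest mean FPKM), the 2 highest of each marker list and the 5 most alike. Some genes that this rule takes are not reported here. Residuals of libraries with the same replicate number correlated at -0.0746 to 0.205 and others at -0.284 to 0.218, so the numbers did not pair the libraries. Python 3.11.15, pandas 2.3.3, numpy 2.4.6 and matplotlib 3.10.9 were used.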

Additional observations from a re-analysis of the deposited data

How the results depend on the processing

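There were 3 libraries a group, and 7 of the 10 genes had under 100 counts in every library. Calls also moved with single libraries for Thy1 and Cd247, which had more. Of the 420 values of single genes under alternatives, 383 kept their direction and side of the threshold, 27 kept the direction but no longer passed, 0 newly passed and 10 changed sign. The cause was not tested.

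The 4 calls of the 10 genes in DCM compared with CK ranged from 0 to 4 with 1 library left out, and those in SPM compared with CK from 2 to 3, with 2 when all 9 libraries were in one fit. Of the related genes, 3 of the 43 tested were called in DCM compared with CK. DESeq2 gave 9 of 43, no filter 11 of 64, the GC correction 5 of 43 and limma 7 of 43. Leaving out 1 library gave 2 to 8, of 44 to 47 tested. The share of all genes called lower was 2.31%. It was 2.76%, 2.3%, 2.37% and 3.2% in those alternatives, and 1.42% to 2.78% with 1 library left out. The 4 of 42 in SPM compared with DCM became 0 of 42 with the GC correction and 2 of 42 with limma. They became 0 to 4, of 43 to 46 tested, with 1 library left out. The share of all genes called higher was 2.7%, then 0.607% and 1.77%, and 0.283% to 3.85% with 1 library left out. The 4 of 45 in SPM compared with CK became 7 with limma, and 0 to 8 with 1 library left out. The share of all genes called lower there was 4.12%, then 6.2%, and 2.28% to 4.6% with 1 library left out.

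With 1 library left out, signs changed in SPM compared with DCM for Lck (−0.019 without DCM replicate 2, to 0.71) and Cd3d (−0.28 without DCM replicate 3 and −0.12 without SPM replicate 2, to 0.22). In SPM compared with CK they changed for Nkg7 (−0.39 to 0.23, the latter without CK replicate 1 or SPM replicate 3, and 2e-04 without CK replicate 2), for Cd3g (−0.55 to 0.050) and for Cd4 (−0.41 to 0.032), the last ones without CK replicate 1. The GC correction turned Nkg7 to 0.033 there. With the replicate number as a block, which does not pair the libraries, 4, 0 and 3 of the 10 genes were called in DCM compared with CK, SPM compared with DCM and SPM compared with CK, and 2, 4 and 3 of the related genes. The block together with the GC correction gave 4, 0 and 3, and 4, 3 and 4, and turned Nkg7 to 0.043 in SPM compared with CK.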

Other observations

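Several genes listed for T and NK cells were read in these hearts far above the CD3 chains and with smaller fold differences between libraries than Cd3d. On the FPKM scale S1pr1 was at 46.1 to 66.5, Gzmm at 7.91 to 10.6, Fyn at 13.7 to 18.3 and Prkcq at 1.44 to 1.85, whereas Cd3d was at 0.159 to 0.703. Some groups did not overlap, with SPM values given here only with SPM replicate 2 included. All SPM libraries were above all CK libraries for S1pr1 (log2 difference 0.39, adjusted p = 0.0118, under the 1.5-fold limit). For Fyn they were all below CK, as for 23.8% of all genes, and it did not pass (−0.17, adjusted p = 0.0571). For Gzmm and Prkcq, all DCM libraries were above all CK and all SPM libraries, with adjusted p above 0.05. S1pr1 and Fyn are well known in endothelial and many other cells, and which cells gave these levels was not tested. They were chosen for this description after their values were seen.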
